A study of Mus musculus with 14 samples.

Results

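The genes described here mark the cells that surround and support the seminiferous tubule rather than the germ cells inside it. They comprise 4 smooth muscle contractile genes of peritubular myoid cells, Acta2, Myh11, Myl9 and Tagln, and 4 genes of stromal cells, Dcn, Pdgfra, Pdgfrb and Tcf21. The 8 genes were chosen by name and all 8 had a row in both count tables, which together list 38444 genes. RNA sequencing of polyadenylated RNA had been performed on sorted germ cells of C57Bl6/J mice that were homozygous for a Dnmt3C knockout allele (Dnmt3CKO/KO, here KO) or wild-type (WT). Spermatogonia (Spg, 3 KO and 3 WT libraries) came from testes at postnatal day 14 and were sorted as live cells positive for EpCAM and negative for beta-2-microglobulin. Spermatocytes (Spc, 4 KO and 4 WT libraries) came from testes of mice older than 20 days and were sorted by Hoechst DNA staining and exclusion of propidium iodide. The study's methods describe no surface marker for the spermatocyte sort. Libraries were made from littermates, and no pooling scheme per library is given in the sources used here, so p-values measure the spread between these libraries.

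Peritubular myoid cells are flat, contractile cells that wrap each seminiferous tubule. They carry the machinery of smooth muscle, with a dedicated actin, a smooth muscle myosin and its regulatory light chain, and they push sperm and fluid along the tubule. Between the tubules lie fibroblast-like stromal cells, blood vessels with pericytes, macrophages and Leydig cells, the source of testosterone. Receptors for platelet-derived growth factor (PDGF) mark many of these mesenchymal cells, and signals through them guide the development of myoid and Leydig cells.

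Total counts per library, over genes and transposable elements, lay between 40555726 and 53323651. Dnmt3c RNA did not serve as a check of the labels, since its counts overlapped between the genotypes in spermatogonia (58 to 116 in KO, against 53 to 89) and were higher in KO spermatocytes (52 to 57, against 11 to 28). KO and WT therefore stand for the libraries labelled so. The summed level of 8 spermatogonial genes was 1177 to 1853 counts per 1000000 counts (CPM) in the spermatogonia. The summed level of 6 pachytene genes was 8178 to 14490 CPM in WT spermatocytes and 193 to 455 CPM in KO spermatocytes. The KO spermatocyte libraries also held 448 to 1155 CPM of the spermatogonial genes, against 37.6 to 283 CPM in WT. Spermatocyte replicates 1 and 4 were much alike in either genotype: their mean chi-square per feature was 11.6 in KO and 14.9 in WT, against 129 to 286 for the other pairs of spermatocyte libraries. These pairs still differed by more than sampling noise, which does not show that they came from separate animals. The paper's captions give fewer biological replicates of spermatocytes per genotype than the 4 libraries used here. Replicates 1 and 4 were kept as separate libraries, so the errors and p-values of spermatocytes may be too small.

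In the GRCm38 genome Acta2 (ENSMUSG00000035783.9) lies at chr19:34241090-34255590 on the minus strand, Myh11 (ENSMUSG00000018830.10) at chr16:14194535-14291372 on the minus strand, Myl9 (ENSMUSG00000067818.6) at chr2:156775420-156781658 on the plus strand and Tagln (ENSMUSG00000032085.5) at chr9:45929619-45936058 on the minus strand. Dcn (ENSMUSG00000019929.16) lies at chr10:97479609-97518143 on the plus strand, Pdgfra (ENSMUSG00000029231.15) at chr5:75152292-75198215 on the plus strand and Tcf21 (ENSMUSG00000045680.8) at chr10:22817281-22820174 on the minus strand, and Pdgfrb has the identifier ENSMUSG00000024620.11. Genes on the opposite strand overlap Tagln (Pcsk7 and Gm48529), Pdgfra (Gm42802 and Gm42803) and Tcf21 (Gm10824), and counting used strand. On its own strand Pdgfra overlaps the microRNA gene Mir7025, which strand does not separate from it. Acta2 shares near-identical coding sequence with the other actins, so reads may have been divided among them, and its values are uncertain to that degree.

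Smooth muscle genes are known to carry CArG boxes, the sites of serum response factor, near their start. A CArG box has 2 C, then 6 letters that are A or T, then 2 G, and its reverse complement is again a CArG box, so that a search of either strand finds the same boxes. RefSeq promoters (GRCm38.p6, 250 bases before to 50 after the start) were given for 4 of the 8 genes, Acta2, Myl9, Pdgfra and Tcf21. The Myl9 promoter held 1 exact box and 1 with a single C or G inside. The Acta2 promoter held 0 exact boxes and 2 with a single C or G inside, and the promoters of Pdgfra and Tcf21 held neither kind. Of 32851 promoters of that length, 1.63% held an exact box, 8.5% held a box with 1 C or G inside and 0.68% held at least 2 of the latter. The boxes are shown in capitals with 10 bases on each side because they are the matches found in the promoters of these genes. They lie at chr19:34255438-34255467 and chr19:34255388-34255417 (minus strand, within an annotated Acta2 exon) and at chr2:156775293-156775322 and chr2:156775355-156775384 (plus strand, upstream of the annotated Myl9 exons), and their first bases lie 84, 34, 161 and 99 bases before the RefSeq start. A match is a description of letters and not evidence of binding.
Acta2 box 84 bases before the start: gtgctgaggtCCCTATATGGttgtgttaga
Acta2 box 34 bases before the start: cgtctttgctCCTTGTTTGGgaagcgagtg
Myl9 box 161 bases before the start: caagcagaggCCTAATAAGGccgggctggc
Myl9 box 99 bases before the start: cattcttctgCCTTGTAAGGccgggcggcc

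In spermatogonia the 8 genes were low and none was called between KO and WT. CPM here are counts scaled by the trimmed mean of M-values (TMM) over all 14 libraries. Among the contractile genes, Myl9, the regulatory light chain of smooth muscle myosin, had 9.42, 7.10 and 5.96 CPM in KO replicates 1 to 3 and 10.4, 8.91 and 3.71 CPM in WT. Acta2, the smooth muscle alpha actin, had 5.21, 3.72 and 2.96 CPM in KO and 4.58, 6.03 and 2.57 CPM in WT. The values of both genes interleaved between the genotypes. Myh11, the smooth muscle myosin heavy chain, lay between 1.05 and 1.99 CPM in KO and between 1.16 and 2.07 CPM in WT. Tagln, the actin-binding protein transgelin, lay between 0.531 and 0.763 CPM in KO and between 0.583 and 1.35 CPM in WT.

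The stromal genes were also low in spermatogonia, and none of them was called. Pdgfra, the receptor that binds several PDGF dimers, had 5.84, 7.22 and 5.29 CPM in KO and 4.51, 4.38 and 5.35 CPM in WT. The lowest KO library lay just under the highest WT library, and scaled over the spermatogonia alone it lay just above, at 6.33 against 6.28 CPM. Dcn, the collagen-binding proteoglycan decorin, lay between 0.411 and 1.29 CPM in KO and between 0.380 and 2.01 CPM in WT. Pdgfrb, the PDGF receptor typical of pericytes, lay between 0.493 and 0.710 CPM in KO and between 0.458 and 1.37 CPM in WT. Tcf21, a transcription factor of stromal progenitors, had 11, 17 and 0 counts in KO and 10, 20 and 12 counts in WT. The count of 0 in KO replicate 3 allows a level of up to 0.0532 CPM, the value of 3 counts there, and covers counting error only. These values of Tcf21 were close to the limit of detection in every spermatogonia library.

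None of the 8 genes was called in spermatogonia by edgeR's quasi-likelihood test at a Benjamini-Hochberg adjusted p under 0.01 over all genes and transposable elements, where 0.0436% of the 20659 genes tested were called in either direction. These were 9 genes in all, 0 to 18 when each library was left out in turn and 108 under a replicate block; none of the 8 was among them. The log2 fold changes ran from -0.72 for Tcf21 (SE 0.96) to 0.33 for Pdgfra (SE 0.25). The lowest unadjusted p was 0.17, for Tagln, so 0 of the 8 fell under 0.05 before adjustment, and DESeq2 called 0 as well. With standard errors of 0.25 to 0.96 on the log2 scale, changes well above that size could also remain uncalled. The pachytene gene Ldhc, for example, had a log2 fold change of -6.42 (SE 1.11) there and was not called (adjusted p = 0.0644, edgeR). The median log2 fold change of the 8 genes was -0.21, beside 0.02 over all genes tested.

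**Figure D1:**
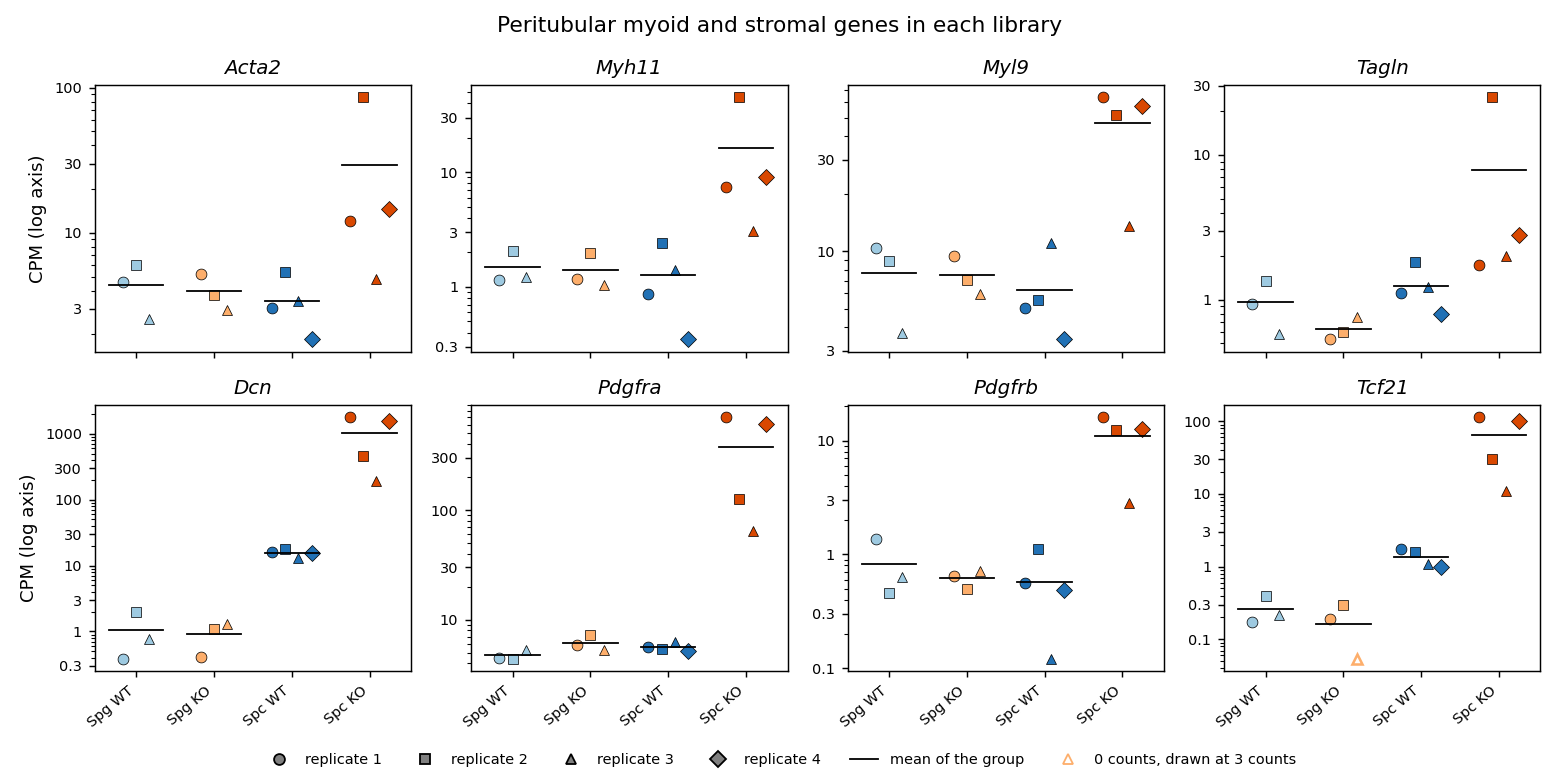
CPM of each of the 8 genes in the 14 libraries on log axes, with 1 symbol per replicate and a bar at the mean of each group; the open triangle for Tcf21 is a library with 0 counts, drawn at the level of 3 counts. Acta2, Myh11 and Tagln are highest in KO spermatocyte replicate 2, and Dcn, Pdgfra and Tcf21 are highest in KO spermatocyte replicates 1 and 4.

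In spermatocytes 7 of the 8 genes were higher in KO than in WT, and Tagln did not pass the test. When replicates 1 and 4, which were much alike, were added up as 1 sample per genotype, 5 remained called, the 4 stromal genes and Myl9. In that fit 15.9% of all genes tested were called higher. With all libraries kept apart, the 4 stromal genes differed by 19.7-fold to 68.3-fold and the 3 called contractile genes by 7.59-fold to 13.2-fold. Of all 21919 genes tested 28.0% were called higher, which is the background to 7 of 8. The median log2 fold change of the 8 genes was 4.01, beside 0.11 over all genes. In bulk samples of this kind, more cells of a type and more RNA per cell cannot be told apart.

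Dcn had 1808, 466, 191 and 1575 CPM in KO replicates 1 to 4 and 16.1, 17.9, 12.9 and 15.6 CPM in WT. The WT libraries were close to each other, with a mean of 15.6 ± 2.07 CPM (SD, n = 4), whereas the KO libraries spread 9.45-fold and each lay far above WT. The log2 fold change was 6.03 (SE 0.71, adjusted p = 6.73e-05, edgeR). As counts, this was 89455, 25999, 10033 and 77322 in KO and 447 to 595 in WT.

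Pdgfra followed the same order of libraries, with 710, 127, 64.3 and 614 CPM in KO and 5.68, 5.37, 6.23 and 5.22 CPM in WT. Its log2 fold change was 6.09 (SE 0.78, adjusted p = 0.00011, edgeR), close to that of Dcn. Tcf21 had 115, 29.9, 11.1 and 102 CPM in KO and 1.73, 1.60, 1.1 and 0.974 CPM in WT. Its log2 fold change was 5.60 (SE 0.75, adjusted p = 0.000139, edgeR). In these 3 stromal genes KO replicates 1 and 4 held the highest values, replicate 2 was several-fold lower and replicate 3 was lowest.

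Pdgfrb was the least abundant receptor and its KO libraries were more even, at 16.2, 12.4, 2.84 and 12.7 CPM. The WT libraries had 0.556, 1.11, 0.120 and 0.487 CPM, from 18, 37, 5 and 14 counts. Its log2 fold change was 4.30 (SE 0.74, adjusted p = 0.000579, edgeR). Replicate 2 thus ranked beside replicates 1 and 4 for Pdgfrb, unlike for Pdgfra.

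Among the contractile genes Myl9 had the smallest error, with 64.0, 51.8, 13.6 and 57.4 CPM in KO and 5.06, 5.55, 11.1 and 3.44 CPM in WT. Its log2 fold change was 2.92 (SE 0.52, adjusted p = 0.000742, edgeR). The lowest KO library, replicate 3, lay above the highest WT library, also replicate 3. As for Pdgfrb, KO replicates 1, 2 and 4 were near each other.

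Acta2 was dominated by a lone library. It had 12.1, 86.1, 4.80 and 14.6 CPM in KO replicates 1 to 4 and 3.06, 5.34, 3.38 and 1.84 CPM in WT, so that KO replicate 3 lay below WT replicate 2. Its log2 fold change was 3.14 (SE 0.83, adjusted p = 0.00667, edgeR). Without KO replicate 2 it fell to 1.66 with an adjusted p of 0.0151, and the call was also lost without any of the 4 WT libraries in turn, at adjusted p values of 0.0134 to 0.0204, and with replicates 1 and 4 summed, at 0.0179.

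Myh11 had 7.40, 45.3, 3.09 and 9.17 CPM in KO and 0.864, 2.41, 1.41 and 0.348 CPM in WT, with each KO library above each WT library. Its log2 fold change was 3.72 (SE 0.89, adjusted p = 0.00394, edgeR). Without KO replicate 2 it fell to 2.42 and kept an adjusted p of 0.00929, while without WT replicate 1, 3 or 4 the adjusted p rose to 0.0107 to 0.0134, and with replicates 1 and 4 summed it was 0.0122.

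Tagln was not called, at a log2 fold change of 2.7 (SE 0.89, adjusted p = 0.0193, edgeR). It had 1.74, 25.1, 2.00 and 2.81 CPM in KO and 1.11, 1.81, 1.22 and 0.800 CPM in WT. KO replicate 1 lay just under WT replicate 2, and outside replicate 2 the KO libraries were at most 2.81 CPM. Without KO replicate 2 the log2 fold change was 0.859 (adjusted p = 0.0893). In all, 6 of the 8 genes, the exceptions being Acta2 and Tagln, had each KO library above each WT library, a pattern seen for 33.5% of the 21521 tested genes with a row in both tables.

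**Figure D2:**
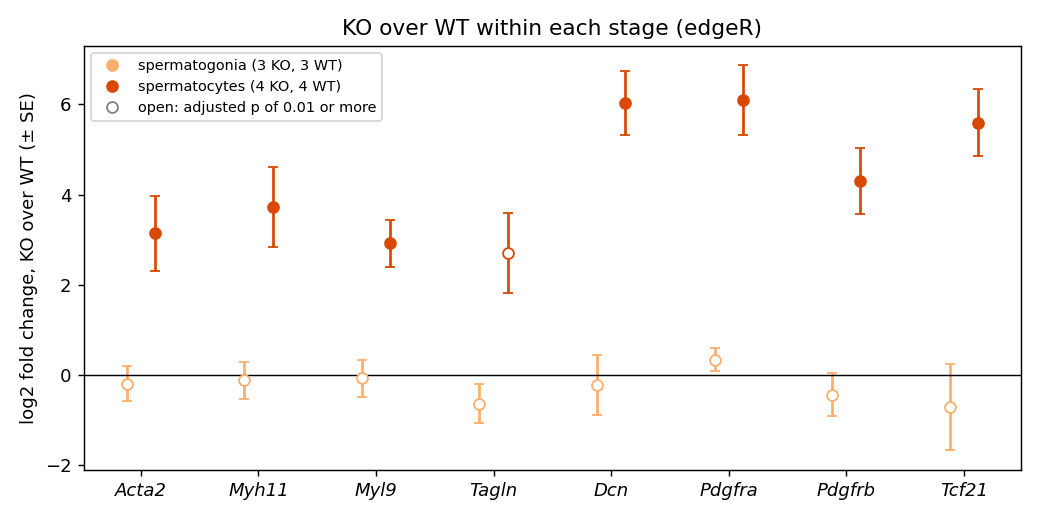
Log2 fold change of KO over WT with its standard error for each gene in spermatogonia and in spermatocytes, from edgeR fits of each stage alone; filled points have an adjusted p under 0.01. The spermatogonia values lie between -0.72 and 0.33 and the spermatocyte values between 2.7 and 6.09, with Tagln open in both stages.

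The KO spermatocyte libraries divided the 8 genes by their distribution. Of the CPM summed over the 4 KO libraries, replicate 2 held 73.2% for Acta2, 69.7% for Myh11 and 79.3% for Tagln, against a median of 23.5% over the tested genes. For Dcn, Pdgfra and Tcf21 replicate 2 held between 8.36% and 11.6%, and replicate 1 held 44.6% to 46.9% where the median gene had 25.3%. Myl9 and Pdgfrb stood between, with 27.7% and 28.0% in replicate 2. Replicate 3 held 4.09% to 7.27% for every one of the 8 genes, where the median gene had 24.8% and the lowest decile was 9.99%.

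**Figure D3:**
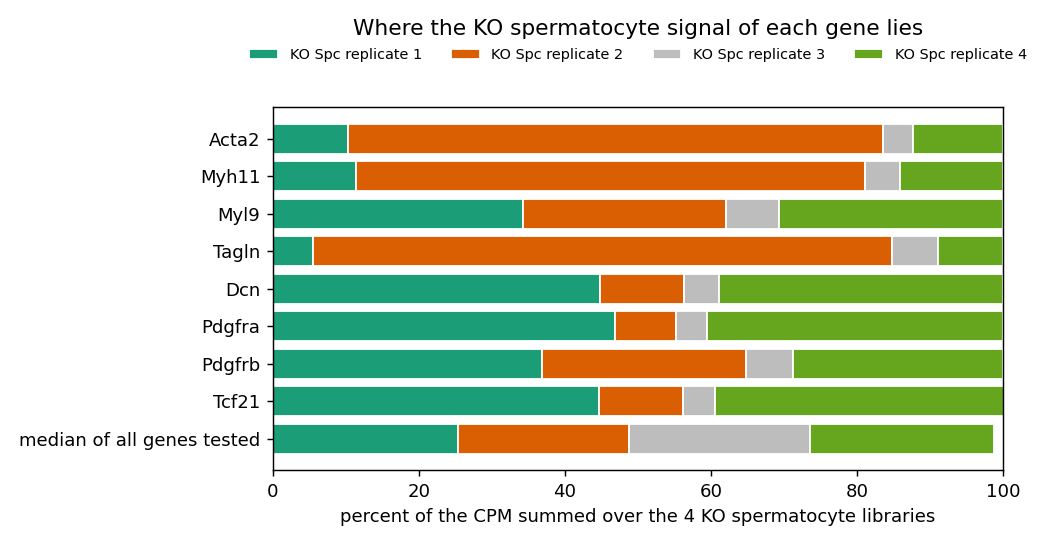
Percent of the CPM summed over the 4 KO spermatocyte libraries that lies in each library, for the 8 genes and as the median of each library over the 21521 tested genes (medians need not sum to 100). Replicate 2 holds 73.2% of Acta2, 69.7% of Myh11 and 79.3% of Tagln, and replicates 1 and 4 hold most of Dcn, Pdgfra and Tcf21.

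The proportion of contractile to stromal genes was lower in spermatocytes than in spermatogonia, and its ranges overlapped between the genotypes in either stage. Per 100 counts of the 4 stromal genes, the 4 contractile genes had 116 to 265 counts in the spermatogonia of WT and 147 to 230 in those of KO. In WT spermatocytes they had 41.9, 58.0, 83.8 and 28.9 counts per 100 stromal counts, and in KO spermatocytes 3.21, 32.8, 8.72 and 3.65. The proportion is a ratio within a library and does not depend on scaling between libraries. Together the 8 genes took 0.00173% to 0.00317% of the counts of a WT spermatocyte library and 0.287%, 0.103%, 0.0342% and 0.251% of KO replicates 1 to 4. By summed CPM, scaled by TMM within each stage alone, KO exceeded WT 45.0-fold in spermatocytes (69.2-fold when scaled by library totals, which also shifts the median over all genes tested from 0.11 to 0.79 on the log2 scale) and had 0.967 times the WT level in spermatogonia. The spermatocyte sum was mostly Dcn: the contractile genes alone summed to 23.5 to 208 CPM in KO and 6.43 to 17.1 CPM in WT, and the stromal genes to 270 to 2650 CPM in KO and 20.4 to 26.0 CPM in WT.

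**Figure D4:**
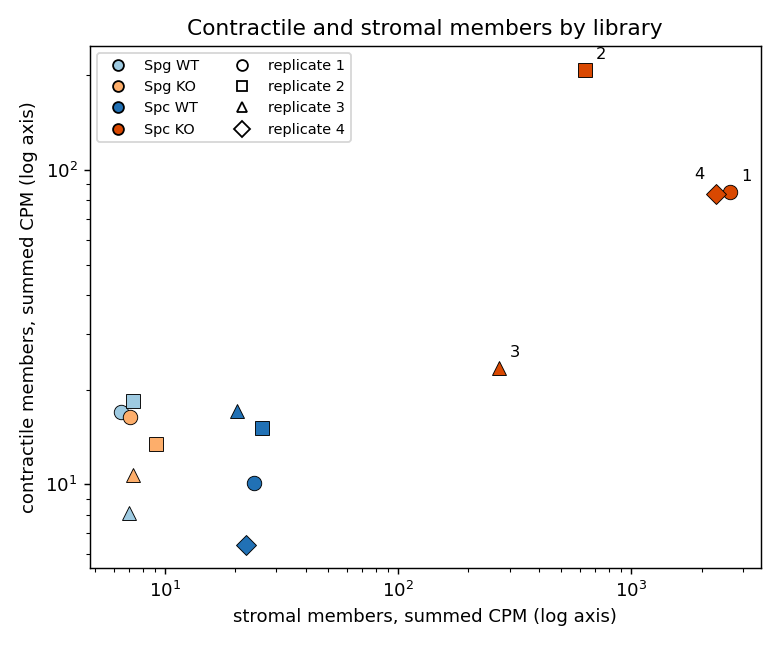
Summed CPM of the 4 contractile genes against summed CPM of the 4 stromal genes in each of the 14 libraries, on log axes, with the 4 KO spermatocyte libraries numbered by replicate. KO replicate 2 has the highest contractile sum, 208 CPM, and KO replicates 1 and 4 have the highest stromal sums, 2650 and 2304 CPM.

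Per kilobase of exon, which allows levels to be compared between genes, the order changed with the stage. In WT spermatogonia Myl9 led with 6.59 ± 3.01 CPM per kilobase (SD, n = 3), followed by Acta2 with 2.00 ± 0.79, and Tcf21 was last with 0.112 ± 0.051. The ranges of Myl9 and Acta2 did not overlap there, whereas the 4 lowest genes, Myh11, Dcn, Pdgfrb and Tcf21, overlapped each with the next. In WT spermatocytes Myl9 had 5.40 ± 2.85 CPM per kilobase (SD, n = 4) and Dcn 2.68 ± 0.35, with overlapping ranges. In KO spermatocytes Dcn led with 173 ± 137 CPM per kilobase, followed by Myl9 with 40.2 ± 19.5, Pdgfra with 37.8 ± 32.9 and Tcf21 with 27.5 ± 22.1. The ranges of all neighbours in that order overlapped, although Dcn was above Myl9 in 4 of 4 KO libraries.

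Between the stages, the WT libraries showed 1 change among the 8 genes. Dcn was higher in WT spermatocytes than in WT spermatogonia, with a log2 difference of 3.89 (SE 0.76) and an adjusted p of 0.000546 in edgeR, at 12.9 to 17.9 against 0.380 to 2.01 CPM. In this comparison 29.2% of the 24340 genes tested were called higher. Without WT spermatogonia replicate 2 the Dcn value was 4.63. Tcf21 had a log2 difference of 2.36 that was not called (SE 0.85, adjusted p = 0.0251), and none of the 4 contractile genes was called by edgeR, with log2 differences of -0.37 to 0.37. Stage, age and method of sorting changed together here and cannot be told apart.

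In KO the same step from spermatogonia to spermatocytes gave 4 called genes, all of them stromal. Dcn was higher by 10.09 (SE 1.00), Tcf21 by 8.61 (SE 1.09), Pdgfra by 5.95 (SE 0.75) and Pdgfrb by 4.15 (SE 0.74) on the log2 scale, where 3.01% of the genes tested were called higher by edgeR. This background was 733 genes, and it fell to 216, 154 and 112 without KO spermatogonia replicates 1, 2 and 3 and to 389 and 379 without KO spermatocyte replicates 1 and 4. The Pdgfrb call was lost without any of the 3 KO spermatogonia libraries or without KO spermatocyte replicate 1 or 4, at adjusted p values of 0.0109 to 0.0327, and with spermatocyte replicates 1 and 4 summed, at 0.0154. Tcf21 moved to 9.31 without KO spermatogonia replicate 2 and to 8.0 without replicate 3. The contractile genes had log2 differences of 2.64 to 3.65 with adjusted p values of 0.0101 to 0.0413 and were not called.

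The KO effect itself was larger in spermatocytes than in spermatogonia for 5 of the 8 genes, by the interaction term of a fit over all 14 libraries. The log2 difference of effects was 6.25 for Tcf21 (SE 1.22), 6.2 for Dcn (SE 1.01), 5.71 for Pdgfra (SE 0.88), 4.69 for Pdgfrb (SE 0.95) and 2.92 for Myl9 (SE 0.73). Tcf21 moved to 7.1 without KO spermatogonia replicate 2 and Dcn to 5.4 without WT spermatogonia replicate 2. By edgeR 11.1% of the genes tested, 2690 in number, were called in this direction, with 1604 and 1449 without KO spermatogonia replicates 2 and 3 and 4785 without WT spermatocyte replicate 3. The Myl9 call was lost without 9 of the 14 libraries in turn, at adjusted p values of 0.0102 to 0.0177, and with spermatocyte replicates 1 and 4 summed, at 0.0232. Acta2, Myh11 and Tagln had differences of 3.26, 3.76 and 3.27 with adjusted p values of 0.0236, 0.0153 and 0.0322. The interaction shares its libraries with the comparisons within each stage and is not a separate observation.

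Other genes of the smooth muscle apparatus moved in both directions in KO spermatocytes. Of a list of 16, 15 were tested, 8 were higher, 2 were lower and 5 were not called, where 28.0% and 30.7% of all genes were called higher and lower, with a median log2 fold change of 2.25 beside 0.11 for all genes. The 2 most abundant, Myl6, an essential myosin light chain found in most cells, and Mylk, the kinase that phosphorylates the light chain, had log2 fold changes of -0.51 and 0.83 with adjusted p values of 0.108 and 0.0898. The following genes were named after their values were seen. Des, the intermediate filament protein desmin, had 52.0, 11.3, 7.02 and 47.1 CPM in KO and 0.359 to 0.957 CPM in WT (log2 fold change 5.50, SE 0.76, adjusted p = 0.00017, edgeR). Lmod1, an actin nucleator of smooth muscle, had 23.3, 9.73, 2.44 and 22.3 CPM in KO and 0.0958 to 0.247 CPM in WT. Des and Lmod1 were thus highest in replicates 1 and 4, as Dcn, Pdgfra and Tcf21 were. Over the whole list 9 of 16 genes were highest in KO replicate 2 and 7 in replicate 1, and Cnn1, the actin-binding protein calponin, had 69.9% of its summed KO level in replicate 2 (log2 fold change 2.25, adjusted p = 0.0326, edgeR, not called).

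The 2 smooth muscle genes that were lower in KO were Actg2, the gamma smooth muscle actin, and Mrtfa, a coactivator of serum response factor, against 30.7% of all genes called lower. Actg2 had 0.445, 2.2, 0.267 and 0.428 CPM in KO and 15.4, 4.40, 33.5 and 14.7 CPM in WT, a log2 fold change of -4.32 (adjusted p = 0.00124, edgeR). It thus ran opposite to Acta2 between the genotypes, while within KO replicate 2 was its highest library, with 65.9% of the summed KO level. Between the WT stages Actg2 was higher in spermatocytes by 6.97 on the log2 scale (adjusted p = 0.000157, edgeR), where 29.2% of all genes were called higher. Acta2 had a log2 difference of -0.37 between the WT stages and was not called. Mrtfa had a log2 fold change of -1.25 and its paralog Mrtfb one of 1.47 (adjusted p = 0.00425 and 0.00185). Srf, serum response factor itself, had a log2 fold change of 0.24 and was not called.

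The PDGF ligands, whose receptors are among the 8 genes, were less uniform. Of 4 ligands, Pdgfb and Pdgfd were higher in KO spermatocytes and Pdgfa and Pdgfc were not called, Pdgfc and Pdgfd being named after their values were seen. This is beside 28.0% of all genes called higher. Pdgfb had 3.84, 11.2, 9.25 and 3.48 CPM in KO and 0.370, 1.15, 1.70 and 0.278 CPM in WT, a log2 fold change of 3.02 (adjusted p = 0.00241, edgeR). Its highest KO libraries were replicates 2 and 3, the libraries in which Pdgfra was lowest. The summed spermatogonial genes were also highest there, with 457, 1155, 1137 and 448 CPM in KO spermatocyte replicates 1 to 4. In the sorted spermatogonia Pdgfb itself had 8.36 to 14.7 CPM. Their relation was not tested. Pdgfa had a log2 fold change of -0.85 (adjusted p = 0.106).

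Matrix and fibroblast genes of the interstitium were higher in KO spermatocytes in 12 of 12 cases, beside 28.0% of all genes, with a median log2 fold change of 5.98. Col1a2, a chain of type I collagen, had 2175, 1657, 167 and 1906 CPM in KO and 13.9 to 22.0 CPM in WT. Col3a1, type III collagen, had 1601, 2455, 137 and 1426 CPM in KO and 13.8 to 20.1 CPM in WT. For Col3a1 KO replicate 2 was the highest library and for Col1a2 it lay below replicates 1 and 4, at 1657 against 1906 and 2175 CPM. The summed level of the list reached 811 to 7811 CPM in the KO spermatocytes, with 100 to 177 CPM in those of WT, and 413 to 536 CPM over all spermatogonia libraries. Most of the spermatogonia sum was Fn1, the matrix glycoprotein fibronectin, with 247 to 451 CPM there and 10.3 to 67.0 CPM in WT spermatocytes.

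Marker lists of further somatic cells were compared in the same libraries, against 28.0% of all genes called higher, and their part in the result was not tested. Gata4, Emcn, Kcnj8 and Fn1 were named after their values were seen. Of the pericyte genes 5 of 6 were higher, among them Mcam and Cspg4, with summed levels of 121 to 159 CPM in KO and 7.53 to 40.6 CPM in WT among the 5 with a row in both tables. Much of that sum was Mcam, with 59.0, 134, 132 and 63.7 CPM in KO spermatocytes, 2.78 to 37.2 CPM in WT spermatocytes and 157 to 251 CPM in the spermatogonia. Of the endothelial genes 3 of 6 were higher, including the cadherin Cdh5 (135, 39.8, 11.7 and 122 CPM in KO), and Egfl7 was not called (57.4% of its summed KO level in replicate 2), with sums of 29.7 to 151 CPM in KO and 5.62 to 9.17 CPM in WT. Each of 7 macrophage genes was higher, Csf1r and Lyz2 among them, with sums of 39.1 to 164 CPM in KO and 3.62 to 9.44 CPM in WT. Each of 7 Leydig cell genes was higher, Nr5a1 and Cyp17a1 among them, with sums of 75.4 to 439 CPM in KO and 20.1 to 36.5 CPM in WT. Of 9 Sertoli cell genes 1 was higher, Gata4, and Clu and Cldn11 were not called, with sums of 313 to 1128 CPM in KO and 137 to 526 CPM in WT. Of these markers, Emcn and Kcnj8 were at 0 in at least 1 WT spermatocyte library, and none was at 0 in a KO spermatocyte library.

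The lists fell on the same libraries as the 8 genes to differing degrees. Leydig genes were highest in KO replicate 1 in 7 of 7 cases, with sums of 439, 75.4, 81.3 and 360 CPM in replicates 1 to 4. Macrophage genes were highest in replicate 2 in 6 of 7 cases, with sums of 95.2, 164, 39.1 and 90.4 CPM. Endothelial genes were highest in replicate 2 in 4 of 6 cases, with a median of 63.0% of the summed KO level there, beside 71.5% for the 4 contractile genes and 45.2% for the macrophage genes; the exceptions included Cdh5. Over all tested genes, 27.1% were highest in replicate 1 and 29.2% in replicate 2. Of the 8 genes, 5 were highest in replicate 1 and 3 in replicate 2.

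Germ cell genes differed between the same libraries, in which 28.0% of all genes were called higher and 30.7% lower. Of 8 spermatogonial genes 6 were higher in KO spermatocytes, including Dmrt1 and Uchl1. Of 6 early meiotic genes 3 were higher and 1 was lower, and the 2 most abundant, Sycp1 and Sycp3, had log2 fold changes of 0.27 and -0.01 that were not called. Of 6 pachytene genes 5 were lower, including Ldhc and Hspa2, and of 6 spermatid genes 6 were lower, including Prm2 and Tnp2. Scaled to the early meiotic genes alone, an alternative chosen after seeing the data, 7 of the 8 genes were called, where 25.1% of all genes tested were called higher. The study describes an arrest of KO germ cells at pachytene, so the makeup of the sorted cells and the genotype cannot be told apart in spermatocytes.

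**Figure D5:**
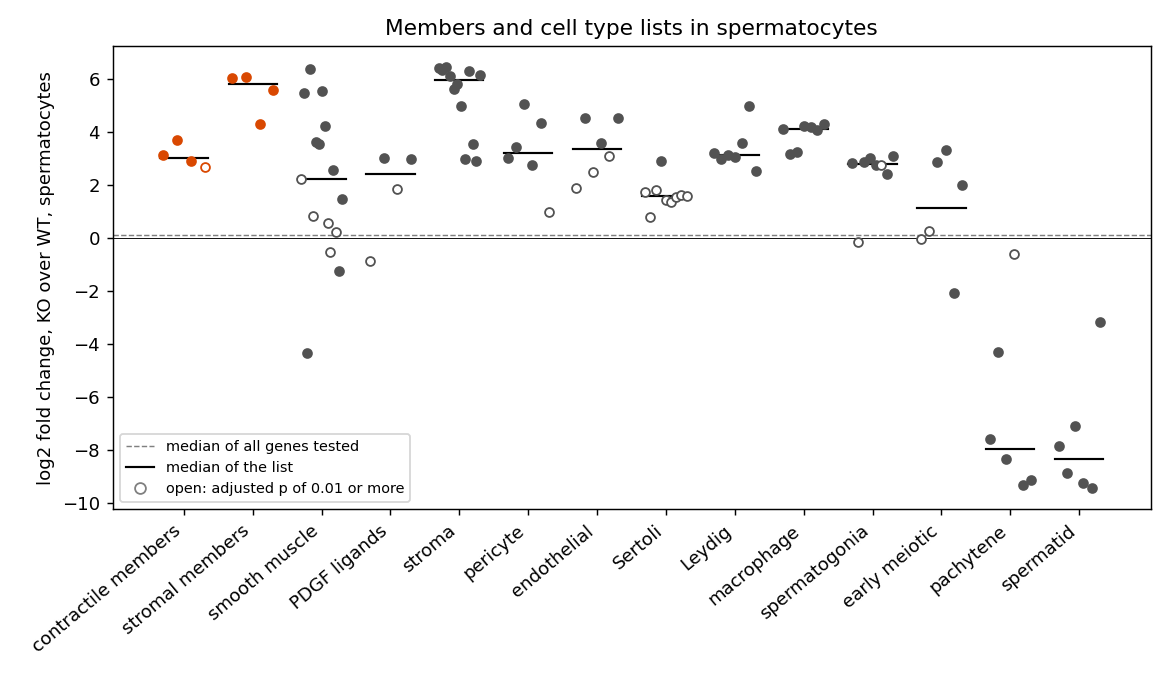
Log2 fold change of KO over WT in spermatocytes for the 8 genes (orange) and for every tested gene of the other lists (grey), with a bar at the median of each list and a dashed line at the median of all genes tested, 0.11; open points have an adjusted p of 0.01 or more. The stromal members and the stroma list have medians of 5.82 and 5.98, and the pachytene and spermatid lists have medians of -7.95 and -8.36.

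In spermatogonia none of the genes of these lists was called by edgeR. The pachytene genes nevertheless stood apart there, with a median log2 fold change of -4.34 and sums of 437, 1455 and 215 CPM in WT replicates 1 to 3 against 143, 121 and 113 CPM in KO. For 5 of the 6, the exception being Mybl1 (named after its values were seen), each KO library lay below each WT library, a pattern seen for 6.28% of the genes tested, and the adjusted p values of these 5 ran from 0.0526 to 0.364. The other lists had medians between -0.24 and 0.23. The spermatogonia sums of the Sertoli genes, 319 to 1131 CPM in WT and 435 to 1460 CPM in KO, followed the replicate number, with replicate 1 highest in either genotype. Myl9 was also highest in replicate 1 in both genotypes, and Acta2 was not.

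The genes most like Acta2 and Dcn over the 14 libraries were found by Pearson's r of log2(CPM + 0.5) among 16917 genes with a mean of at least 1 CPM. Those closest to Acta2 were Myh11 (r = 0.969), Mmrn1 (0.942), Fmod (0.929), C3 (0.928) and Cpz (0.922), and Tagln ranked 6 with 0.921. Those closest to Dcn were Fgl2 (0.994), Sparcl1 (0.993), Adamts5 (0.990), Gsn (0.987) and Cd248 (0.987), and Tcf21 ranked 22 with 0.976. The Dcn and Acta2 patterns themselves had r = 0.636. C3, a complement component, had 40.4, 321, 11.4 and 30.2 CPM in KO spermatocytes and at most 4.68 CPM elsewhere. Fgl2 had 550, 116, 48.8 and 477 CPM in KO spermatocytes and at most 5.15 CPM elsewhere. These correlations describe libraries that share stage, genotype and sort. The minimum of 1 CPM was a mean over all 14 libraries, so genes low elsewhere could enter through KO spermatocytes alone. Mmrn1 was such a gene, with at most 0.211 CPM elsewhere, and its likeness to Acta2 rests on that group.

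With the alike KO spermatocyte replicates 1 and 4 both left out, an alternative chosen after seeing the data, 8 of the 8 genes were called, where 14.7% of all genes tested were called higher, with log2 fold changes of 4.39 for Dcn, 4.09 for Pdgfra, 3.92 for Tcf21 and 3.74 for Acta2. The alike WT replicates 1 and 4 were both kept in that fit. KO replicate 2, which held most of the KO level of Acta2, Myh11 and Tagln, weighed more in it. With replicates 1 and 4 of each genotype summed into 1 sample, 5 of the 8 genes were called, where 15.9% of all genes were called higher. Without KO replicate 2, 6 were called, where 23.0% of all genes were.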

How the data were processed

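Polyadenylated RNA of sorted germ cells was sequenced with a stranded kit in 14 libraries. The authors aligned reads to GRCm38 with STAR 2.7.3a after trimming with cutadapt 4.0, kept up to 100 alignments per read, and counted genes (GENCODE M25) and transposable element subfamilies with TEtranscripts. The deposited values used are raw counts per gene and subfamily, 40555726 to 53323651 in total per library. The same tables hold the authors' own means, fold changes and p-values (DESeq2 1.44.0), which were not used, and neither were the tables of single transposable element copies. The authors left out a spermatogonia library of each genotype for low RNA quality. Samples were grouped by the labels. Library columns of the spermatogonia table numbered 4 hold the samples titled replicate 3.

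Counts were tested with edgeR 4.0.16 in R 4.3.3: low counts were removed by filterByExpr, libraries were scaled by TMM over genes and subfamilies, quasi-likelihood models were fitted to each stage alone (KO against WT) or to all 14 libraries (stages, interaction), and p-values were adjusted by Benjamini-Hochberg over all features, with calls at an adjusted p under 0.01. Repeated PCR reads were not identified, so depth-based limits cover counting error only. Alternatives were DESeq2 1.42.0, as the test or for its size factors only, TMM without the subfamilies, scaling by library totals, a filter at a mean count of 50, no filter except for genes without counts, a threshold of 0.05, a replicate block, leaving out each library, and summing spermatocyte replicates 1 and 4. Scripts were tested on simulated data.

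Same-numbered KO and WT spermatogonia deviated together from their group means (r = 0.732, 0.170 and 0.280 for replicates 1 to 3), so the numbers were taken to pair these libraries, although KO replicate 2 correlated more with WT replicate 3 (r = 0.314); the block changed no call of the 8 genes there. Exon lengths, positions and overlaps came from GENCODE M21, which holds 99.67% of the spermatogonia and 99.62% of the spermatocyte gene identifiers. The 8 genes, the lists and the tests were chosen with earlier results of these data known. Named were the 8 genes and, from each other list, the 2 genes with the highest mean CPM over the 14 libraries; further genes are said to be named after their values were seen. The 5 genes most like Acta2 and Dcn were taken by Pearson's r.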

Additional observations from a re-analysis of the deposited data

Results flagged for a closer look

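In groups of 4 libraries the highest and lowest value were compared with the rest by Dixon's criterion for the 8 genes in KO and in WT spermatocytes. Of these 16 groups 3 were past it, where chance gives about 1 in 20, and all 3 were the same library, KO replicate 2: Acta2 with 86.1 CPM, Myh11 with 45.3 CPM and Tagln with 25.1 CPM. The 3 genes were not independent of each other there. The macrophage sum of that library was 164 CPM, the highest of the 4, and its Leydig sum was 75.4 CPM, the lowest of the 4. The endothelial genes had a median of 63.0% of their summed KO level in that library, beside 71.5% for the 4 contractile genes and 45.2% for the macrophage genes. Their part in the result was not tested.

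The KO effect differed between spermatocytes and spermatogonia by the interaction term of edgeR for 5 of the 8 genes. The log2 difference was 2.92 for Myl9 (adjusted p = 0.00644), 6.2 for Dcn (adjusted p = 0.000568), 5.71 for Pdgfra (adjusted p = 0.000407), 4.69 for Pdgfrb (adjusted p = 0.00195) and 6.25 for Tcf21 (adjusted p = 0.00161). Each of the 4 KO spermatocyte libraries lay above each WT spermatocyte library for these 5 genes, a pattern seen for 33.5% of the genes tested, and 11.1% of the genes tested were called higher for the interaction. The stages also differed in age and sorting method, which cannot be told apart from them.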

How the results depend on the processing

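Across the log2 values of the 8 genes in all comparisons and alternatives, 741 kept their direction and their side of the threshold, 29 lost a call, 27 gained one and 16 changed sign; none of the 16 was called. Dcn, Pdgfra, Pdgfrb and Tcf21 kept their call in spermatocytes under each alternative, and so did Myl9.

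In spermatocytes Tagln gained a call at an adjusted p under 0.05 and under scaling by library totals. All 8 genes were then called, where 36.9% and 36.8% of all genes were called higher. Of the 8 genes, the number called rose at an adjusted p under 0.05 from 1 to 2 between the WT stages, from 4 to 8 between the KO stages and from 5 to 8 for the interaction, where 34.7%, 7.76% and 23.5% of all genes were called higher. DESeq2 gave 2, 7 and 7, where 25.7%, 6.71% and 15.5% of all genes were called higher. Without 1 library in turn, 5 to 7 of the 8 genes were called in spermatocytes, 3 to 6 between the KO stages and 4 to 7 for the interaction, where 20.2% to 31.4%, 0.445% to 4.01% and 5.76% to 19.9% of all genes were called higher. The background of the KO stage comparison depended on the libraries, with 742 of all genes called, 2043 at an adjusted p under 0.05, 346 with spermatocyte replicates 1 and 4 summed, 112 to 216 without any of the KO spermatogonia libraries in turn, 389 and 379 without KO spermatocyte replicate 1 or 4, 375 under the replicate block and 2308 by DESeq2. For the interaction 6251 were called, 11191 at an adjusted p under 0.05, 9807 by DESeq2, 3521 with replicates 1 and 4 summed and 3793 to 8993 without 1 library in turn. In spermatogonia 9 of all genes were called, 56 at an adjusted p under 0.05, 591 by DESeq2, 144 without the filter and 108 under the replicate block.

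Scaling by library totals changed the split of all calls between higher and lower from 6145 and 6740 to 8074 and 4880 in spermatocytes, from 7103 and 5674 to 4541 and 8724 between the WT stages and from 2690 and 3561 to 4252 and 1733 for the interaction. Under that scaling the uncalled differences between WT stages turned to -0.438 for Tagln and -0.553 for Pdgfra, and with spermatocyte replicates 1 and 4 summed that of Myh11 turned to 0.0208. Leaving out 1 library in turn, uncalled log2 values in spermatogonia ranged from -0.48 to 0.138 for Acta2, -0.455 to 0.23 for Myh11, -0.419 to 0.178 for Myl9, -0.653 to 0.675 for Dcn and -0.704 to 0.136 for Pdgfrb. Between the WT stages they ranged from -0.74 to 0.0894 for Myh11 and from -0.0409 to 0.577 for Tagln. The cause was not tested.

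With the replicate block the spermatogonia value of Myl9 was 0.0287 and again 0 of the 8 genes were called there. For the comparisons between stages the block joined spermatogonia and spermatocyte libraries by number alone. These came from mice of different ages, so there the block is no check of a pairing. Spermatocyte replicates share only a number (r of the deviations 0.0814, 0.235, -0.0344 and 0.138), and the block gave 6 of the 8 genes called in spermatocytes, 1 between the WT stages, 3 between the KO stages and 4 for the interaction, where 24.2%, 27.1%, 1.54% and 11% of all genes were called higher; the calls not made under it were Acta2 in spermatocytes (adjusted p = 0.0142, edgeR), Pdgfrb between the KO stages (0.0139) and Myl9 for the interaction (0.0259). Depth limits Tcf21 in spermatogonia, at 0 to 20 counts, and Pdgfrb in WT spermatocytes, at 5 to 37 counts.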
